A study of Mus musculus with 2 samples.

Results

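Most proteins of a mitochondrion are made in the cytosol and have to be carried across its membranes, and the genes described here encode the machinery that does so. The 36 genes were chosen by symbol, from the TOM and SAM complexes of the outer membrane, the chaperones of the intermembrane space, the TIM22 and TIM23 translocases, the PAM motor, the processing peptidase and the MIA relay, with Tomm34 and Timmdc1 included for their names. Their probes were found through the RefSeq accession that the array files give. All 36 had a probe well above background on both arrays, where 51% of the 20618 genes with a named probe had one, so they are 36 of 10517 genes measured in this way. Of the 36, 0 were well above background in SoNar-high cells alone, where 26.5% of the 20618 genes were.

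The arrays compare B-ALL cells of mice, a leukaemia of immature B cells, sorted out of bone marrow by SoNar, a fluorescent sensor of NADH relative to NAD+ that is read as a ratio of emission under violet and blue light. The SoNar-high and SoNar-low groups have 1 array each, both from C57BL mice of 8 weeks, with Cy3-labelled cRNA of total RNA on a 1-colour Agilent array. The sample titles call them N-myc-high and N-myc-low, a naming that the labels do not explain, and neither the leukaemia's driver nor a pooling of animals is given. With 1 array a group there is no replicate check and no test, so every value below describes these 2 arrays. The arrays were scanned in different sessions, and scan and group cannot be told apart.

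The share of 43020 spots well above background was 72.9% in SoNar-high cells, against 44.8% in SoNar-low cells, with 0 saturated spots. Of 9 B cell markers, 7 were measured on both arrays with a median log2 difference of -0.36, while Igll1 and Rag1 were not well above background on either. Of the 7, 5 were below 0 and 4 below the median of all genes, -0.17. Of all measured genes 63.2% were below 0. Neutrophil markers were measured for 8 of 8 genes, with a summed linear level of 44.7 in SoNar-high cells and 36.4 in SoNar-low cells, in units of each array's 75th percentile. Their median log2 difference was 0.59, with 7 of 8 above 0, 8 of 8 above the median of all genes and 2 at least 2-fold higher. Of all measured genes 36.8% were above 0 and 4.87% at least 2-fold higher. Of T cell, erythroid and monocyte markers 2 of 6, 1 of 6 and 2 of 5 were measured on both arrays. A further 2 T cell and 3 erythroid markers were well above background in SoNar-high cells alone, while Cd3d and Ms4a7 were not on either array. The measured ones summed to 2.24, 0.916 and 0.582 in SoNar-high cells, against 0.746, 0.249 and 0.289 in SoNar-low cells. The part of other cells in the differences below was not tested. In bulk RNA such as this, fewer cells of a type and less RNA per cell cannot be told apart.

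Precursors reach the TOM complex first. Its receptors bind targeting signals and its channel, Tomm40, lets the chain through the outer membrane. From there the paths part: barrel proteins go to SAM, carriers of the inner membrane go by the small TIM chaperones to TIM22, cysteine-rich proteins are folded by MIA, and precursors with a cleavable presequence pass TIM23, pulled by the PAM motor and trimmed in the matrix. Leukaemic cells, like other dividing cells, need this supply for respiration and for building new mitochondria.

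As a set the import genes differed little between the arrays. A level here is log2 of the processed signal minus the array's own 75th percentile, and a difference is SoNar-high minus SoNar-low. Of 36 genes, 2 were at least 2-fold higher in SoNar-high cells, Timm29 and Timmdc1, where 4.87% of all measured genes were. At least 2-fold lower were 0 of 36, where 1.68% of all genes were. Both Timm29 and Timmdc1 lay in the 2 brightest of 5 equal level classes, which held 31 of the 36 genes, and there 63 of all 4207 genes were at least 2-fold higher. The median difference of -0.26 lay close to that of all genes, -0.17.

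**Figure D1:**
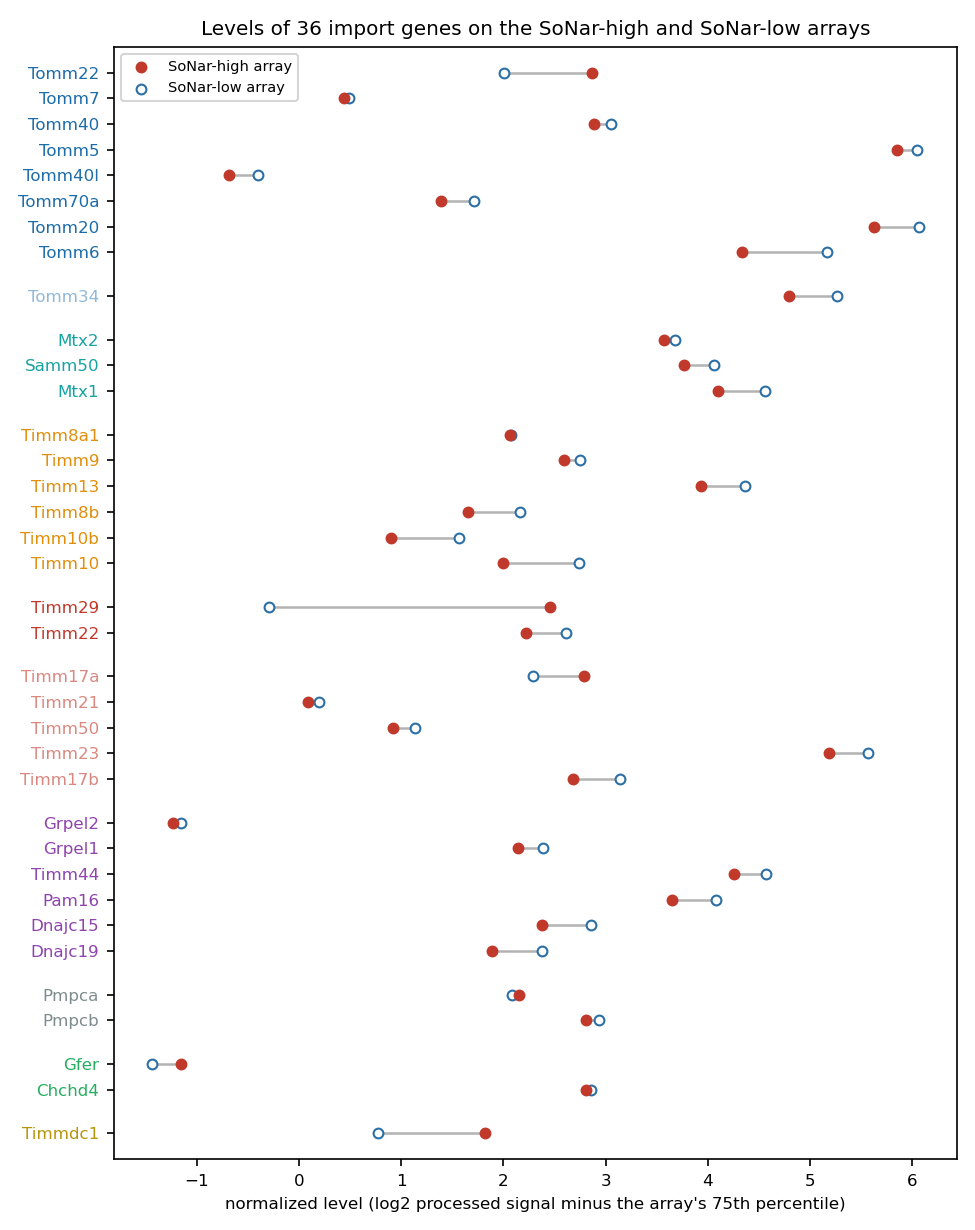
Normalized level (x axis, log2 processed signal minus the array's 75th percentile) of the 36 import genes, by role, with the SoNar-high array as filled and the SoNar-low array as open circles. Timm29 has the widest gap, 2.46 in SoNar-high cells and -0.29 in SoNar-low cells. Levels of different genes are not comparable, since each probe binds differently.

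The import genes were among the brighter ones, and this matters for their sign. Of 36 genes, 30 had a difference below 0, against 63.2% of all measured genes, and 6 had one above 0, against 36.8%. But in the 2 brightest level classes 78.0% of 4207 genes were below 0, and 26 of the 31 import genes were. The median of the 31 was -0.32, and that of all genes in the same 2 classes was also -0.32. The count below 0 also depends on scaling: it was 33 of 36 with median scaling, which shifts every difference by -0.61, and 18 of 36 with the 75th percentile over spots detected on both arrays, which shifts it by 0.26.

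**Figure D2:**
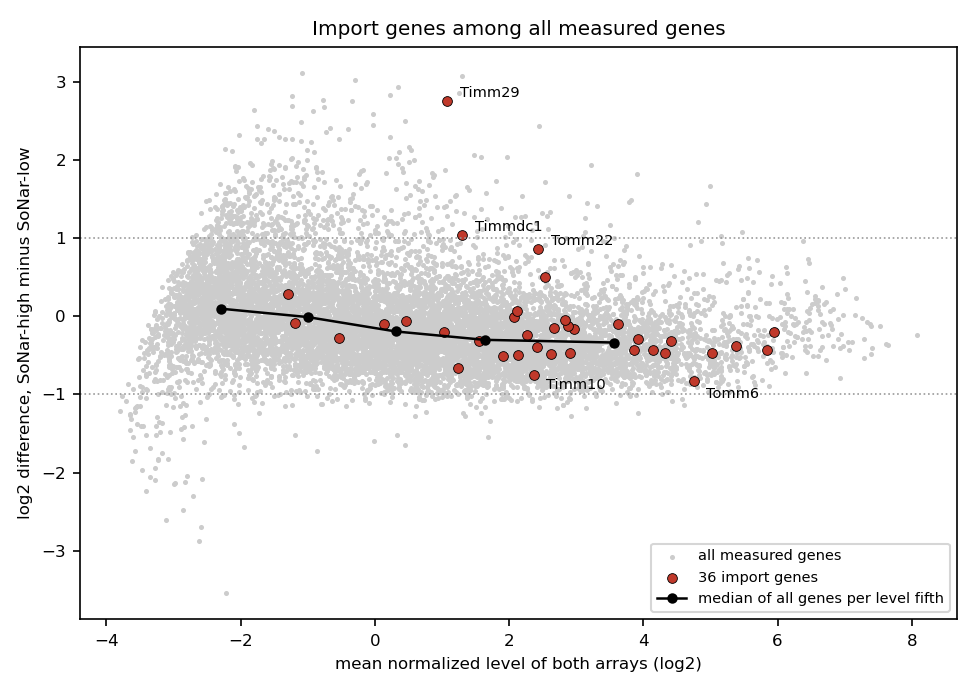
Log2 difference, SoNar-high minus SoNar-low (y axis), against the mean normalized level of both arrays (x axis) for 10517 genes in grey and 36 import genes in red, with the median of all genes in each of 5 level classes as a black line. The line falls to -0.34 in the brightest class, and most import genes scatter about it. Timm29 stands far above, at 2.75.

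Timm29 had the highest difference of the 36. It is a subunit of the TIM22 carrier translocase, known from human cells to contact the TOM complex. Its 1 probe had a processed signal of 2880.2 ± 288 in SoNar-high cells and 388 ± 40.1 in SoNar-low cells, the error being that of the scanner software for a single spot. The log2 difference of 2.75 ± 0.21 is a 6.72-fold higher level, and it ranked 10 of 10517 genes. Under all 13 alternative settings it stayed between 2.14 and 3.01. In the RefSeq annotation Timm29 overlaps its neighbour Yipf2, which also covers the stretch of Timm29 sequence printed here, and the 1 probe of Yipf2 had a difference of 0.41.

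Timmdc1, an assembly factor of respiratory complex I that shares the sequence family of the TIM channels, followed. Its brighter probe had a signal of 1855 ± 186 in SoNar-high cells and 814 ± 82.1 in SoNar-low cells, a log2 difference of 1.04 ± 0.21. A dimmer probe, at 50.5 ± 6.67 in SoNar-high cells and 34.5 ± 11.8 in SoNar-low cells, was not well above background in SoNar-low cells and was left out. With both probes averaged the difference was 0.72, below 2-fold. Median scaling gave 0.43, also below it.

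Tomm22, the central receptor of the TOM complex, came just below 2-fold. Its probe read 3832 ± 383 in SoNar-high cells and 1909 ± 191 in SoNar-low cells, and the difference was 0.86 ± 0.20. It passed 2-fold in 5 of 13 alternatives and lay between 0.25 and 1.12 over all of them. So Timm29 was apart from the other 35 genes in every setting used, while Timmdc1 and Tomm22 moved across the 2-fold line.

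Sequence at the start sites of these genes is shown because several import genes are known targets of ETS factors such as GABP, also called nuclear respiratory factor 2. RefSeq windows of 300 bases, from 250 before to 50 after each start on GRCm38.p6, were at hand for 32 of the 36 genes, not for Timm21, Tomm7, Grpel2 and Tomm40l. The ETS core CCGGAAG occurred on either strand in 14 of 32 (43.8%), against 21.2% of 8478 measured genes with a window. The next lines give it in capitals, read on the strand that carries it, for the 3 highest genes, for 2 of the 4 lowest and for a receptor and a channel in between.
Timm29 (chr9:21592500-21592526, - strand): tgagtggagcCCGGAAGtggtcagagc
Timmdc1 (chr16:38522655-38522681, - strand): ccgagagcttCCGGAAGtgagccggct
Tomm22 (chr15:79670814-79670840, + strand): cggctcgcttCCGGAAGacgctctgtc
Timm10 (chr2:84826995-84827021, - strand): cttctttgatCCGGAAGaaaacgccga
Timm8b (chr9:50603879-50603905, + strand): gaagcgtgaaCCGGAAGgcaggagacg
Tomm70a (chr16:57121624-57121650, + strand): ccttctgaccCCGGAAGtggttctccc
Timm23 (chr14:32201922-32201948, + strand): tgtgtgcggcCCGGAAGtgggaagcgc

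The core was present at genes on both ends of the range. Genes with it had a median difference of -0.28 (n = 14) and genes without it one of -0.30 (n = 18). Tomm22 and Tomm70a, receptors of the same complex whose differences had opposite signs, show this side by side. Their 250 bases before the start lie in no other gene of the annotation, and capitals mark the core on either strand, where overlapping copies run together. Tomm22 is at chr15:79670618-79670867 and Tomm70a at chr16:57121464-57121713, both on the + strand.
Tomm22: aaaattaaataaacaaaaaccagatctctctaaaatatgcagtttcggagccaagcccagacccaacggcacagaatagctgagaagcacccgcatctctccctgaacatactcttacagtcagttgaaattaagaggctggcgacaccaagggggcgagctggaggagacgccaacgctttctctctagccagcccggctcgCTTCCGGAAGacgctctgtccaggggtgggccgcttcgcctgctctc
Tomm70a: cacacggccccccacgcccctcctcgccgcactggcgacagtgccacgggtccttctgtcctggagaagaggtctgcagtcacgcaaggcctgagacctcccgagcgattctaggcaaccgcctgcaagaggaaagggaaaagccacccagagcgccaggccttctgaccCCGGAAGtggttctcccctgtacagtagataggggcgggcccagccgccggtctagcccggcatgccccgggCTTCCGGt

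Other letters searched on both strands were rarer. The NRF1 core GCATGCG was found in 2 of 32 windows, of Grpel1 and Timm13, against 7.56% of measured genes. The E-box CACGTG bound by MYC was found in 4, of Timm10, Timm8a1, Timm9 and Tomm20, against 12.3%. The YY1 letters AAGATGG were found in 4, of Mtx1, Timm17a, Timm50 and Tomm34, against 8.99%. The CREB letters TGACGTC were found in 0, against 6.40%. A match is only a description of the letters, and none of these marks a site in use.

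Among the TOM genes, 7 of 8 were below 0 and 5 of 8 below the median of all genes, with a median of -0.24. Of all measured genes 63.2% were below 0, and 78.0% in the 2 brightest level classes. The receptors did not go together. Tomm20, which binds presequences, read 25928 in SoNar-high cells and 31734 in SoNar-low cells, a difference of -0.44 ± 0.20. Tomm70a, which takes carrier precursors from cytosolic chaperones, read 1374 in SoNar-high cells and 1554 in SoNar-low cells, or -0.32 ± 0.20. Both were more than 1 log2 unit below Tomm22, though Tomm70a lay within the software's error of the median of all genes.

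The channel and the small subunits stayed within 2-fold. Tomm6 was the lowest of all 36 genes, with 10596 in SoNar-high cells and 17024 in SoNar-low cells, a difference of -0.83 ± 0.20. In the annotation Tomm6 overlaps Frs3, Usp49 and Gm20517, none of them measured on both arrays. Tomm5 had -0.20 ± 0.14, from probes at -0.17 and -0.23 that were as close as any pair of the set. Tomm7 had -0.06 ± 0.20, but its bright probe gave -0.37 and its dim one 0.26. The Tomm40 channel had -0.16 ± 0.14, again from probes of opposite sign, -0.43 for the brighter and 0.11 for the dimmer. Its paralogue Tomm40l differed by -0.28 ± 0.21. Tomm34, a cytosolic co-chaperone of Hsp70 and Hsp90 despite its name, had a difference of -0.47 ± 0.20.

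The SAM complex inserts barrel proteins into the outer membrane, and its 3 genes had small negative differences. Samm50, the inserting subunit, had -0.29 ± 0.20, and the metaxins Mtx1 and Mtx2 had -0.47 ± 0.20 and -0.10 ± 0.20. Mtx2 was the one of the 3 above the median of all genes. Its barrel clients, the porins Vdac1, Vdac2 and Vdac3, gave -0.49, -0.70 and -0.44. All 3 porins were below the median of all genes, on bright probes such as that of Vdac2 with 14755 in SoNar-high cells and 21672 in SoNar-low cells.

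**Figure D3:**
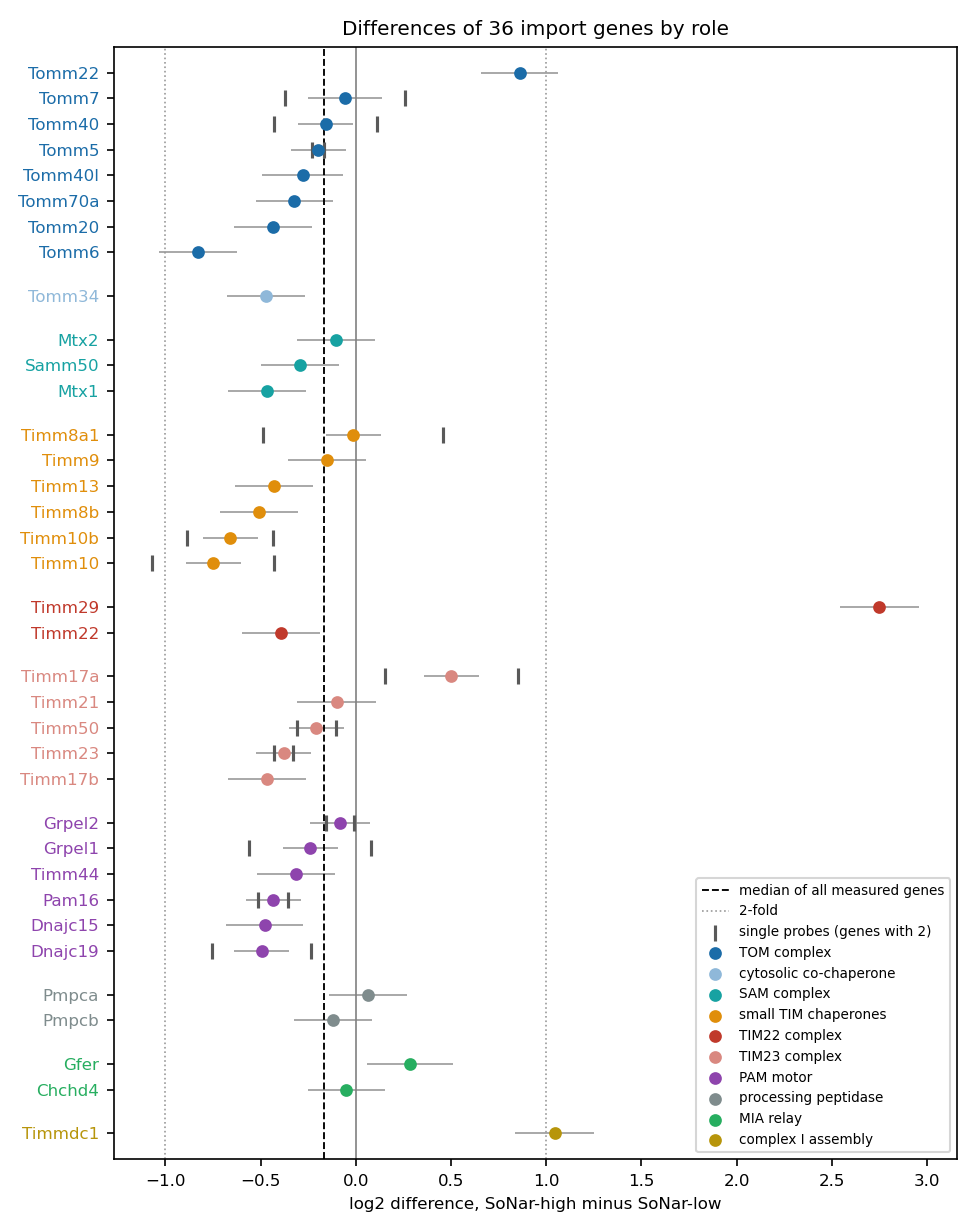
Log2 difference, SoNar-high minus SoNar-low (x axis), of the 36 import genes by role, with the mean over probes as a point, the software's error as a bar and single probes as ticks for the 13 genes with 2 probes. The dashed line is the median of all genes and dotted lines mark 2-fold. Timm29 and Timmdc1 lie past the upper 2-fold line and none past the lower.

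The small TIM chaperones, which escort hydrophobic precursors through the intermembrane space, were 6 of 6 below 0, and 4 of 6 below the median of all genes, with a median of -0.47. Of all measured genes 63.2% were below 0, and 78.0% in the 2 brightest level classes. Timm10 was the lowest of them at -0.75 ± 0.14, and its probes agreed in sign. One read 1503 in SoNar-high cells and 2855 in SoNar-low cells, a difference of -1.07, and the other read 2903 in SoNar-high cells and 3533 in SoNar-low cells, or -0.43. Timm9, the partner of Timm10 in a ring of alternating subunits, had -0.15 ± 0.20, so the pair did not share a size. Timm10b, which docks on TIM22, had -0.66 ± 0.14. Its probes read 973 and 992 in SoNar-high cells, against 1626 and 1212 in SoNar-low cells, differences of -0.89 and -0.43. Timm8b, a relative of Timm8a1, read 1649 in SoNar-high cells and 2124 in SoNar-low cells, a difference of -0.51 ± 0.20.

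Timm8a1 and Timm13 form the other ring. Timm13 had -0.43 ± 0.20, with 7994 in SoNar-high cells and 9747 in SoNar-low cells. Timm8a1, the mouse counterpart of the human deafness-dystonia gene, averaged -0.01 ± 0.15, from probes that disagreed more than any other pair, at -0.49 and 0.46. Its average therefore hides a gap several times the software's error.

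TIM22 is represented by 2 genes, and they differed most. Timm22, the channel that inserts carriers, read 2442 in SoNar-high cells and 2902 in SoNar-low cells, a difference of -0.39 ± 0.20, against 2.75 for its partner Timm29. Carrier genes listed as clients of TIM22 had no such difference, and whether each one is inserted by TIM22 was not tested. Of 17 measured carrier genes, 0 were at least 2-fold higher or lower, where 4.87% of all measured genes were higher and 1.68% lower. The median of the 17 was -0.34, with Slc25a32, the folate carrier, lowest at -0.94 and Slc25a20, the carnitine carrier, highest at 0.06. Slc25a10, Slc25a24 and Slc25a39 were well above background in SoNar-high cells alone, where 26.5% of all genes with a named probe were.

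In the TIM23 translocase the paralogues Timm17a and Timm17b, which pair with the Timm23 channel, had opposite signs in the main setting. One Timm17a probe read 3309 in SoNar-high cells and 1660 in SoNar-low cells, a difference of 0.85. The other read 3991 in SoNar-high cells and 3246 in SoNar-low cells, a difference of 0.15. Their mean was 0.50 ± 0.14 in the main setting but -0.11 with median scaling. Timm17b had -0.47 ± 0.20. Since scaling moves both alike, Timm17a was above Timm17b under every scaling. Timm23 itself had -0.38 ± 0.14, with 2 bright probes at -0.33 and -0.43. Timm50, the receptor for presequences on this side, had -0.21 ± 0.15, and Timm21, which links the translocase to respiratory assembly, -0.10 ± 0.21. The complex as a whole had 4 of 5 genes below 0, where 63.2% of all measured genes were, and a median of -0.21.

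The PAM motor pulls chains into the matrix, and as means over probes its genes lay close together (SD 0.16 between genes). Below 0 were 6 of 6, and 5 of 6 were below the median of all genes. Of all measured genes 63.2% were below 0, and 78.0% in the 2 brightest level classes. The differences of the 6 ran from -0.49 to -0.08, and with the brightest probe alone from -0.76 for Dnajc19 to -0.01 for Grpel2. Timm44, which anchors the motor at the channel, had -0.32 ± 0.20. The J-proteins Dnajc19 and Dnajc15 had -0.49 ± 0.14 and -0.48 ± 0.20, and Pam16, which restrains them, had -0.43 ± 0.14. The mean of Dnajc19 comes from probes at -0.76 and -0.23, so with the brightest probe alone it was -0.76, against -0.48 for Dnajc15 and -0.51 for Pam16.

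Grpel1 and Grpel2 exchange the nucleotide of the motor's Hsp70. Grpel1 is the 1 import gene whose probe was spotted repeatedly. Its 10 spots had a mean signal of 4919 ± 152 in SoNar-high cells and 6572 ± 416 in SoNar-low cells (SD of spots), and their differences ran from -0.76 to -0.33, with a mean of -0.56 ± 0.12. A second Grpel1 probe gave 0.08, outside the whole range of those spots, which took the gene to -0.24. Grpel2 had -0.08 ± 0.16. Hspa9, the Hsp70 of this motor, had -0.61.

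Precursors that arrive are trimmed by the processing peptidase, whose subunits Pmpca and Pmpcb differed by 0.06 ± 0.20 and -0.12 ± 0.20. The MIA relay forms disulfide bonds in the intermembrane space. Chchd4, its oxidoreductase, had -0.05 ± 0.20, with 3677 in SoNar-high cells and 3441 in SoNar-low cells. Gfer, the sulfhydryl oxidase that renews Chchd4, had 0.28 ± 0.23 on a dim probe with 236 in SoNar-high cells and 175 in SoNar-low cells. These 4 genes were all above the all-gene median, and for Pmpca, Pmpcb and Chchd4 the difference was smaller than the software's error.

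Genes listed as clients of MIA were mixed, and whether each one depends on MIA was not tested. Of 17 measured, 12 were below 0, where 63.2% of all measured genes were, and the median was -0.23. At least 2-fold higher or lower were 0 of the 17, where 4.87% of all measured genes were higher and 1.68% lower. Cox11, a copper chaperone of complex IV, was lowest of the list at -0.82, followed by Ndufb7 at -0.67. Coa6, also an assembly factor of complex IV, was highest at 0.38. Cox17, a copper chaperone that passes copper on towards complex IV, was well above background in SoNar-high cells alone. So were 26.5% of all genes with a named probe, and Cox17 is not among the 17. One Cox17 probe read 284 in SoNar-high cells and 20.1 in SoNar-low cells, at least 5.55-fold higher in the main setting. That is a log2 bound of 2.47, and median scaling shifts every difference by -0.61. The other probe, with 40.5 in SoNar-high cells and 9.94 in SoNar-low cells, gave no bound.

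The 9 genes named Tomm had a median difference of -0.28, with a range from -0.83 to 0.86, and the 15 named Timm had one of -0.32, with a range from -0.75 to 2.75. The Tomm median was thus higher by 0.04, while single genes had an SD of 0.46 among Tomm and 0.89 among Timm. A split by location, with TOM and SAM (11 genes) against TIM22, TIM23 and PAM (13 genes), gave the same 0.04. This is no separate check, since the middle genes, Tomm40l and Timm44, were the same in both splits. The sign turned in 6 of 13 alternatives, to -0.13 with cyclic loess, -0.11 with normexp, -0.10 with quantile normalization, -0.08 with the authors' values, -0.04 with the brightest probe and -0.01 with a stricter filter. The Timm SD was 0.32 without Timm29 and Timmdc1, which were left out after their values were seen. The Tomm median was then higher than the Timm median by 0.10.

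How far 1 probe speaks for its gene can be read from the 13 import genes with 2 measured probes. For 9 the probes had the same sign and in 4 the opposite sign. The gap between them ran from 0.06 to 0.95, with a median of 0.52, against the SD of 0.15 between repeat spots. The other 23 genes, Timm29 and Tomm22 included, rest on 1 measured probe. Most differences among import genes are smaller than the median gap between probes.

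Beyond the members, lists of partners gave few large differences, but so did the measured genes as a whole. Of all measured genes 4.87% reached 2-fold upward in SoNar-high cells and 1.68% reached it downward. Among other genes of presequence processing and membrane insertion, 1 of 13 measured was at least 2-fold higher, Xpnpep3, a peptidase that removes a further residue after the first cut. It read 216 in SoNar-high cells and 63.3 in SoNar-low cells, a difference of 1.62. Romo1, found with TIM23, was lowest at -0.71. The median of the list was -0.08.

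Among mitochondrial proteases 1 of 10 was at least 2-fold higher, where 4.87% of all measured genes were. It was Clpp, the matrix protease subunit, with 1423 in SoNar-high cells and 479.8 in SoNar-low cells, a difference of 1.42. Its partner Clpx stood at -0.18. The lowest of the list was Spg7 at -0.60, and the list median was -0.12. Oma1 was well above background in SoNar-high cells alone, where 26.5% of all genes with a named probe were. In the main setting it was at least 1.31-fold higher, a log2 bound of 0.39. Median scaling shifts every difference by -0.61, which is more than this bound.

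Of 12 cytosolic chaperones that deliver precursors, 1 was at least 2-fold higher, where 4.87% of all measured genes were. It was Stip1, which links Hsp70 to Hsp90, at 1.11, and Dnajb1 was lowest at -0.68. The matrix chaperones had 0 of 7 past 2-fold, with a median of -0.10 and a range from Hscb at -0.68 to Dnlz at 0.37. The MICOS genes, which shape the inner membrane, had 0 of 7 past 2-fold, a median of -0.23 and a range from Chchd6 at -0.55 to Apool at 0.19. In the main setting none of the 8 lists of partners and clients held a gene at least 2-fold lower, where 1.68% of all measured genes were. With median scaling 28 of their 86 measured genes were, and 31.4% of all measured genes were. Hspa9 at -1.22 and Romo1 at -1.32 were among the 28. Of the higher genes, Xpnpep3 then had 1.01, Clpp 0.81 and Stip1 0.50.

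**Figure D4:**
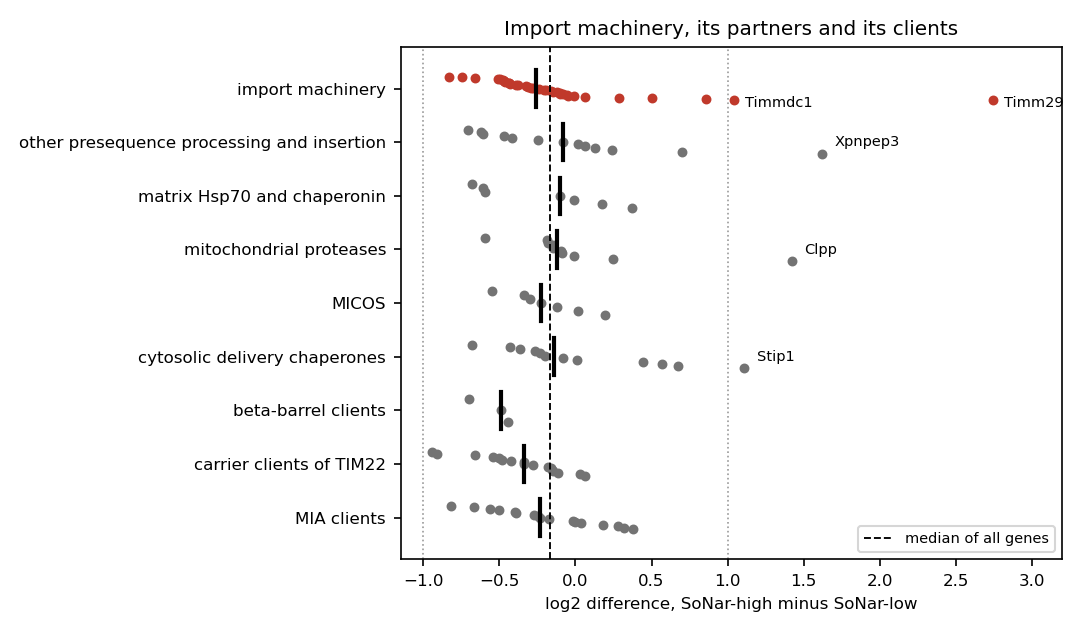
Log2 difference, SoNar-high minus SoNar-low (x axis), of each measured gene of the import machinery (red, 36 genes) and of 8 lists of partners and clients (grey), with list medians as black bars and the median of all genes as a dashed line. The genes past the upper 2-fold line are named, and none lies past the lower.

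The median of the import genes minus that of all genes was -0.09 in the main setting and turned positive with quantile normalization (0.05), cyclic loess (0.04), normexp (0.01) and with the authors' values (0.03). It was -0.27 with no filter on dim probes and -0.40 with detection on at least 1 array, where dim genes join the background. Over the 13 alternatives Timm29 was at least 2-fold higher in 13 and Timmdc1 in 10. With median scaling 13 import genes were at least 2-fold lower, where 31.4% of all genes were.

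**Figure D5:**
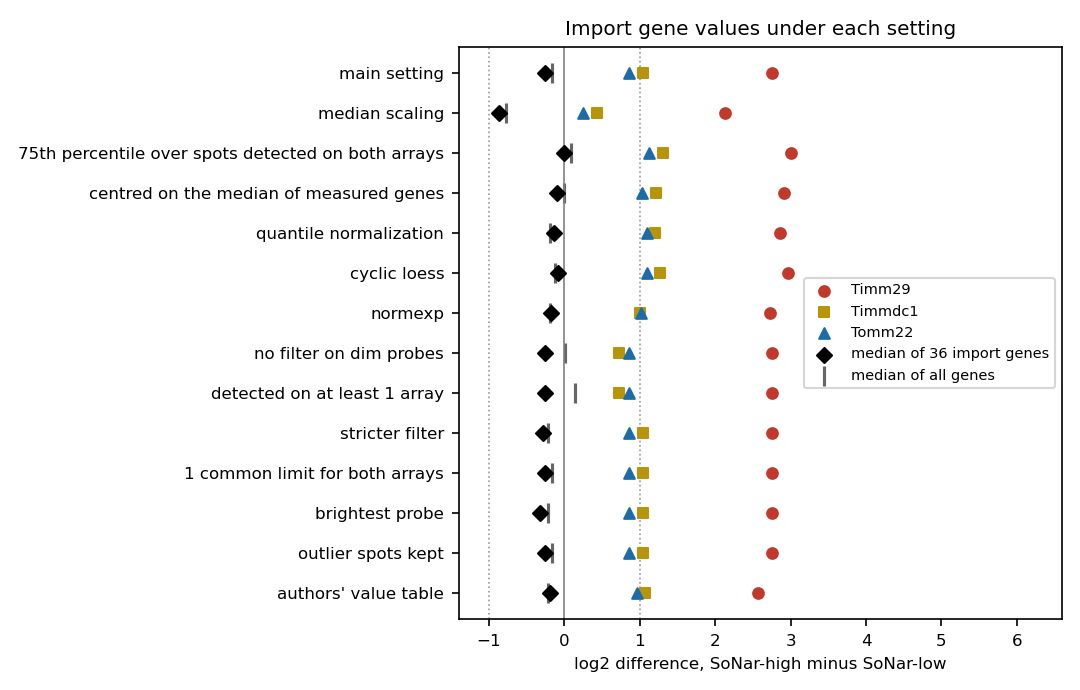
Log2 difference, SoNar-high minus SoNar-low (x axis), of Timm29, Timmdc1, Tomm22 and the median of the 36 import genes under the main setting and 13 alternatives (rows), with the median of all genes as a grey tick. Timm29 stays between 2.14 and 3.01, and the set's median follows that of all genes when the scaling changes.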

How the data were processed

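Gene expression was measured on 1 Agilent 1-colour array per group. Per the file headers, each spot's intensity had its background subtracted and a spatial trend removed by Feature Extraction 11.0.1.1 (version 9.1 in the submitters' processing notes). A table of log2 values that the authors deposited, served as an alternative only. How it was normalized is not given in the sources.

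The 75th percentile of log2 processed signal, taken over the 43020 spots that are no controls, was subtracted on each array, and 685 outlier spots were left out. Spots of a probe were averaged. Detection of a probe required more than 0.5 of its spots to be well above background. Of 39085 probes 27115 were named by RefSeq accession (GRCm38.p6), and a gene was the mean of its probes detected on both arrays. Levels bounded by detection on 1 array used the other array's lowest detected level. Errors are the scanner software's for single spots and leave out cells, labelling and hybridisation. Array positions are of mm9, so coordinates are given only with RefSeq windows.

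All members are described, with both signals for the 4 highest and the 4 lowest and those at 2-fold. Other lists name genes at 2-fold and the highest and lowest, and further genes were picked after their values were seen. Members and lists were chosen with earlier results of these data known. Scaling, naming of probes and averaging were tested on simulated data. All simulated spots were set as well above background, so the filters on dim and outlier spots were not tested. Alternatives were 3 scalings, 3 normalizations (quantile, cyclic loess, normexp with an offset of 50), 4 filters on dim probes, the brightest probe, outlier spots kept, the authors' table and a split by location. Python 3.11.15, numpy 2.4.6, pandas 2.3.3, R 4.3.3 and limma 3.58.1 were used. Some marker genes are not reported here.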

Additional observations from a re-analysis of the deposited data

Results flagged for a closer look

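A dim probe of Timmdc1, outside the comparison, read 50.5 in SoNar-high cells, where the negative control spots had a 97.5th percentile of 5.50 (153 spots). In SoNar-low cells it read 34.5, also past the controls' 13.3, yet the scanner software did not mark it as well above background.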

How the results depend on the processing

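No paired analysis was possible because only 1 array stood for each group, which also left no array to omit. Against 2 import genes at least 2-fold higher, median scaling, no filter on dim probes and detection on at least 1 array each gave 1, while the 75th percentile over spots detected on both arrays, centring, quantile normalization, cyclic loess and normexp each gave 3, with Tomm22 added. Against 0 lower, median scaling gave 13. The median of -0.26 was -0.87 with median scaling, 0.0015 with the 75th percentile over spots detected on both arrays, -0.093 after centring and -0.0796 with cyclic loess. The Tomm median minus the Timm median, 0.04, was -0.10 with quantile normalization, -0.13 with cyclic loess, -0.11 with normexp, -0.08 in the authors' table, -0.04 with the brightest probe and -0.01 with the stricter filter. Scaling and centring shift all genes alike by construction, the weaker filters bring in the dim Timmdc1 probe, and for cyclic loess the cause was not tested. With no filter and with detection on at least 1 array, genes found in SoNar-high cells alone could not be counted; in the other 11 alternatives they were 0 of 36. Of 468 single gene values under alternatives, 270 moved by less than the repeat-spot SD of 0.15 and 198 by more. Timm29 and Timmdc1, the only genes past 2-fold in the main setting, did not change sign. Some smaller differences did. Chchd4 and Timm8a1 kept their sign in 7 of 13 alternatives, and Mtx2, Pmpcb and Timm9 in 8. Others, such as Tomm6 and Timm10, kept it in 13. Dim probes and the number of arrays limit the precision.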

Other observations

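Neighbouring genes were read for the import genes through the RefSeq annotation, counting protein-coding genes that overlap or lie within 3000 bases. For 24 import genes such a neighbour was measured, giving 29 pairs, of which 18 had the same sign and 0 were both past 2-fold. A same sign is common among any genes here, since 30 of 36 import genes and 63.2% of all measured genes were below 0. Only pairs of Timm29 and Timmdc1 could be both past 2-fold, since no other import gene was. Next to Timmdc1, the costimulatory gene Cd80 had a log2 difference of -0.34 and Poglut1, a glycosyltransferase, one of -0.32. Next to Tomm22, the deubiquitinase gene Josd1 read 2467 in SoNar-high cells and 4909 in SoNar-low cells, a difference of -1.14, so the neighbours lay on opposite sides of 0. Timm8b and its neighbour Sdhd, a subunit of respiratory complex II, had -0.51 and -0.37.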
